A study of Mus musculus with 8 samples.

Results

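Mest and Igfbp3 were followed through every library of ribosome footprints and RNA-seq from mouse oligodendrocyte precursor cells (OPCs) and the oligodendrocytes (OLs) differentiated from them. The 2 genes were taken by symbol from 10987 listed coding transcripts, and they were selected because their measured levels were higher in OPCs than in OLs, so that difference is described here and not tested. The study asked how the translation machinery and its output differ between the 2 cell types. OPCs of the 129S/SvEv strain had been derived from epiblast stem cells (EpiSC) and were grown with 20 ng/mL bFGF and 20 ng/mL PDGFA. OLs received 100 ng/mL noggin, 100 ng/mL IGF-1, 10 ng/mL NT3, 40 ng/mL T3 and 10 µM cAMP. Both were collected after 3 days in culture. Each cell type has 2 cultures, and each culture gave 1 footprint library and 1 RNA-seq library, which makes 8 libraries. Plates of a cell type were pooled into each lysate, and RNA-seq used an aliquot of the lysate that was digested for footprints. Cell type and medium changed together and cannot be told apart.

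Igfbp3 encodes a secreted protein that binds the insulin-like growth factors IGF-1 and IGF-2, modulates their access to the IGF1 receptor, and also has partners of its own at the cell surface and in the nucleus. Mest (mesoderm specific transcript, also called Peg1) is an imprinted gene that is expressed from the paternal allele and encodes a protein of the alpha/beta hydrolase fold. Both are known from growing embryonic tissue, and IGF signalling is known to act on the survival and differentiation of cells of the oligodendrocyte lineage.

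The listed Mest transcript, ENSMUST00000163949, lies on the plus strand of GRCm38 at chr6:30738050-30748462, with 12 exons, a coding sequence (CDS) of 1008 bases including the stop codon, a 5′ UTR of 260 bases and a 3′ UTR of 1293 bases. The listed Igfbp3 transcript, ENSMUST00000020702, lies on the minus strand at chr11:7206086-7213897, with 5 exons, a CDS of 879 bases, a 5′ UTR of 107 bases and a 3′ UTR of 1435 bases. The last exon of Mest shares 909 bases with exons of Copg2 on the opposite strand, all in the 3′ UTR. No strand option appears in the authors' counting commands, so reads of the 2 genes over these bases cannot be told apart in RNA-seq, which was measured on the whole transcript. Footprints were measured on the CDS, where 0 bases of Mest overlap Copg2. Of 2392 words of 30 bases in the Igfbp3 transcript, 4 also occur in another coding gene, Igfbp2. The microRNA gene Mir335 lies in intron 2 of Mest and was not measured in these libraries.

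**Figure D1:**
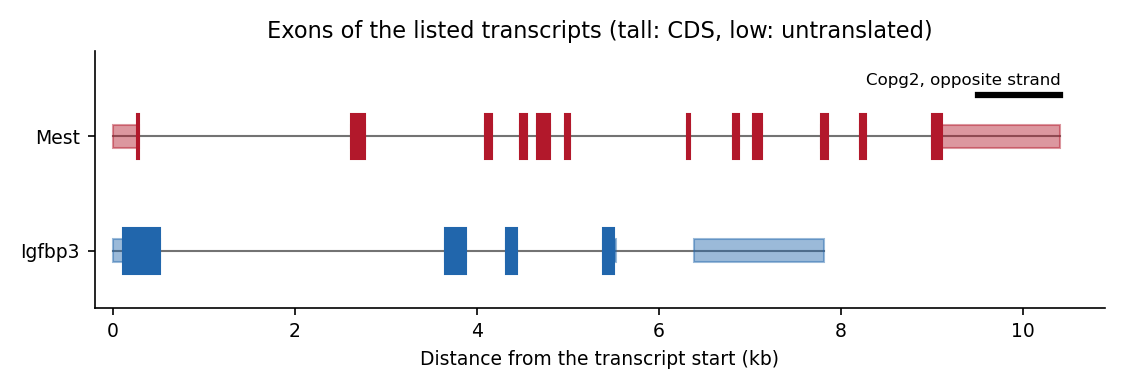
Exon map of the listed Mest and Igfbp3 transcripts (GRCm38), with distance from the transcript start in kilobases on the x axis. Tall boxes are CDS and low boxes untranslated exon, and the black bar marks the 909 exonic bases of Mest that Copg2 also covers on the opposite strand.

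The 250 bases before the RefSeq start of each gene (GRCm38.p6) are shown because both genes were high in the same cells, with GGGCGG (a GC box) and the AT-rich words TTTAAAA and TATATA near the start in capitals. The Mest stretch is chr6:30737800-30738049 on the plus strand and the Igfbp3 stretch chr11:7213924-7214173 on the minus strand. The RefSeq start of Igfbp3 is 26 bases from that of the listed transcript, and that of Mest coincides with it.
Mest: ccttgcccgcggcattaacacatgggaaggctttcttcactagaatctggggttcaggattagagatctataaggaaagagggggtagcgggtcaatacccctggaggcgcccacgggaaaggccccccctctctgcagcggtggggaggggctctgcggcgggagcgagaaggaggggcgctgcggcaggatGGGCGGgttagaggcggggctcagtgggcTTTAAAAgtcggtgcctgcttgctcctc
Igfbp3: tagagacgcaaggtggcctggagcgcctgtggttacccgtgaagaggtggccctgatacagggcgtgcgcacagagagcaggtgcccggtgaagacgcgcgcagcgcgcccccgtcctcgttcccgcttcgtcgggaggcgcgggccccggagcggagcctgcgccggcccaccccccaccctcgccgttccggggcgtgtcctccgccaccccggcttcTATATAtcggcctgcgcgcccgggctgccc

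In the Mest stretch TTTAAAA began 28 bases and GGGCGG 57 bases before the start. In the Igfbp3 stretch TATATA began 30 bases before it. Searched on both strands, GGGCGG is found in 32.7% of 32851 promoter windows of this length, TTTAAAA in 8.10% and TATATA in 5.25%, and these latter words were chosen after the sequences were seen. TATAAA, found in 12.4% of windows, is in neither stretch. The Mest stretch holds 14 CG dinucleotides and the Igfbp3 stretch 32, against a median of 6, and 70.6% and 95.4% of windows hold fewer.

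The codons for phenylalanine (UUU, UUC) and lysine (AAA, AAG) are a theme of the study, since the tRNAs that read them were examined. A stretch of 50 codons from each CDS is shown where these codons are dense, with TTT and AAA in capitals. It runs from codon 38 to codon 87 in Mest and from codon 219 to codon 268 in Igfbp3.
Mest: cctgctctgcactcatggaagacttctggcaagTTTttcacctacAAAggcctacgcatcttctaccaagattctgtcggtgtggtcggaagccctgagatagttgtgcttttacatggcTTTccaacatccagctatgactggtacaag
Igfbp3: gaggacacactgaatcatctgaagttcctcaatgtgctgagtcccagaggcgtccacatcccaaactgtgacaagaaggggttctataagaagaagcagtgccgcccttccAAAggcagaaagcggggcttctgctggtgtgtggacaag

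The Mest stretch has 8 Phe and Lys codons, of which 2 are UUU and 1 is AAA, and the Igfbp3 stretch has 12, of which 0 are UUU and 1 is AAA. Over the whole CDS of 335 codons, Mest uses UUU 8 times and UUC 12 times, a UUU share of 0.400, against a median of 0.429 over 10928 transcripts. Igfbp3, with 292 codons, uses UUC 6 times and UUU 0 times. The AAA share of Lys codons was 0.333 in Mest and 0.294 in Igfbp3, against a median of 0.368. The genes thus differ in Phe codons, which make up 5.97% of the codons of Mest and 2.06% of those of Igfbp3.

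The labels of the libraries were set against marker lists. All 6 tested markers of oligodendrocytes rose in OLs in RNA-seq and in footprints, and Mog and Myrf were listed at 0 in all 4 OPC libraries. Of 5 tested OPC markers, Sox11 fell, Pdgfra, Gpr17 and Sox4 rose, and Ptprz1 had a log2 change of 0.01 in RNA-seq, so several genes used as OPC markers were not high in the cells labelled OPC relative to OLs. All 7 tested proliferation markers fell in RNA-seq, from a summed 500 and 653 FPKM in OPCs to 153 and 172 in OLs, and 6 of 7 fell in footprints. Of the pluripotent and neural rosette markers, the 2 tested, Nes and Sox1, fell. Nanog, Lin28a and Pax6 did not exceed 0.501 FPKM in any RNA-seq library and were not tested. The 3 listed astrocyte markers summed to 14.4 and 11.0 FPKM in OPCs and to 67.2 and 39.8 in OLs, with Slc1a2 and Gfap past the test in RNA-seq. Of 5 neuron markers, Tubb3 rose, and the 2 listed microglia markers stayed at or below 0.142 FPKM in RNA-seq. Without OPC replicate 1 and without OPC replicate 2 the proliferation markers past the test in RNA-seq were 4 of 7 each time. Without OPC replicate 2, 1 of 5 OPC markers, 1 of the 2 rosette markers and 0 astrocyte or neuron markers passed, while all 6 oligodendrocyte markers did. None of the 9 mesenchymal and vascular markers was analysed here. The part that the mix of cells and the fall in proliferation markers have in the values below was not tested, and in bulk libraries fewer cells of a type and less RNA per cell cannot be told apart.

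Depth is known only roughly. The smallest totals of aligned sequence that account for the steps between low FPKM values ranged from 77.9 to 249 Mb per library, and totals 2 to 12 times as large scored higher. The second OL footprint library listed 31.1% of transcripts at 0, against 9.48% to 20.5% in the others. At the smallest totals the values of the members rest on between 86.1 reads of 30 bases (Mest, second OL footprint library, a counting error of 10.8%) and 9117 reads (Mest, first OPC RNA-seq library, 1.05%), and at the larger totals the reads would be 2 to 12 times as many. Replicates had Spearman correlations across transcripts between 0.925 (OL footprints) and 0.979 (OPC footprints). Counting error covers sampling of reads only.

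In RNA-seq, Mest was measured at 442 and 427 FPKM (fragments scaled to transcript length and to the mapped reads of the library) in OPC replicates 1 and 2, and at 29.7 and 33.6 FPKM in OL replicates 1 and 2. The lower OPC value was 12.7 times the higher OL value. The mean was 434.8 ± 10.7 FPKM in OPCs and 31.7 ± 2.74 in OLs (SD, n = 2), a 13.7-fold difference. Among the 10987 transcripts of a library, Mest ranked 97 and 111 from the highest in OPCs and 1980 and 1658 in OLs. Its transcript was thus among the most abundant of the progenitors and still in the upper part of the list in OLs.

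Igfbp3 was measured at 258 and 327 FPKM in OPC RNA-seq and at 28.0 and 30.4 FPKM in OL RNA-seq. The lower OPC value was 8.49 times the higher OL value. The mean was 293 ± 48.9 FPKM in OPCs and 29.2 ± 1.66 in OLs (SD, n = 2), a 10.0-fold difference. In OPCs Mest RNA exceeded Igfbp3 RNA 1.71 and 1.31 times, and in OLs only 1.06 and 1.11 times, so the 2 transcripts were close to equal in level per length in OLs.

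On the log2(FPKM + 0.1) scale the RNA-seq change from OPCs to OLs was -3.78 ± 0.15 for Mest and -3.31 ± 0.18 for Igfbp3 (SE of the fit over 4 libraries). The median change of all 8346 transcripts tested was -0.23, and relative to it the members changed by -3.55 and -3.08. Counted from the largest fall, Mest was at place 137 and Igfbp3 at place 206. Across the RNA-seq test 20.2% of transcripts were lower in OLs past an adjusted p of 0.05 and 13% were higher. Since the members were selected on this contrast, their place in it is no finding. With 2 cultures against 2 an exact permutation test of a single gene cannot give a two-sided p below 0.333.

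**Figure D2:**
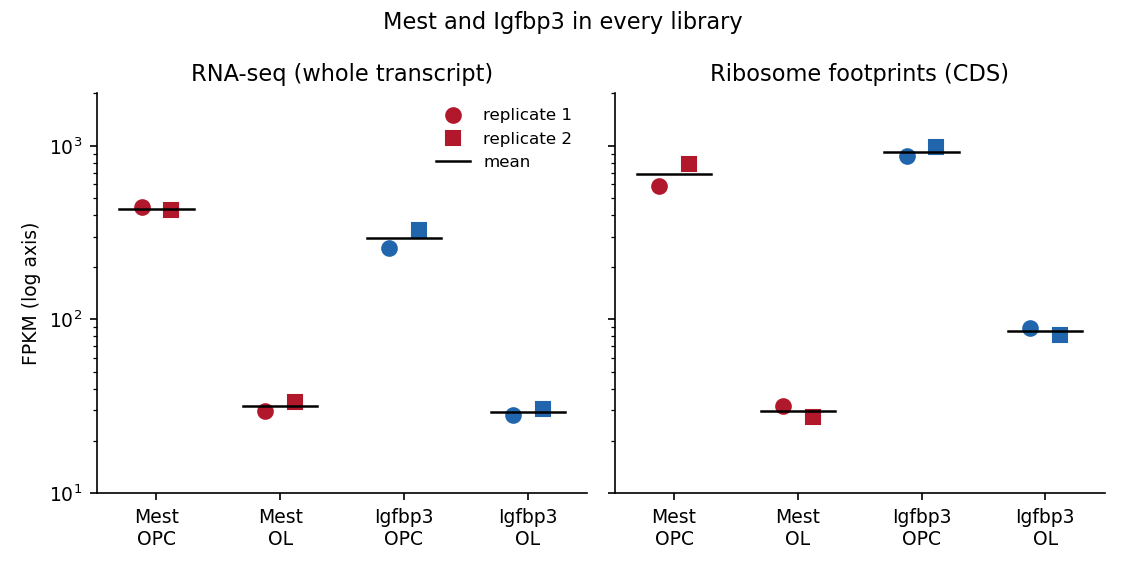
FPKM of Mest (red) and Igfbp3 (blue) in each library on a log axis, RNA-seq on the left and ribosome footprints on the right. Circles are replicate 1, squares replicate 2 and black lines the mean of the 2 libraries, and in every panel the OPC libraries lie above the OL libraries, by 8.49 times or more. The members were selected for being higher in OPCs.

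Ribosome footprints are the stretches of mRNA that ribosomes protect from nuclease, and their level follows the number of ribosomes on a CDS. The nuclease was micrococcal nuclease, and the paper names its sequence specificity as a difficulty in placing ribosomes within footprints. Its part in differences of footprints or of ribosome density between genes was not tested. Mest footprints were at 588 and 789 FPKM in OPCs and at 31.8 and 27.5 FPKM in OLs. The mean was 689 ± 142 FPKM against 29.7 ± 3.00 (SD, n = 2), a 23.2-fold difference, and the lower OPC value was 18.5 times the higher OL value. The OPC cultures differed from each other more in Mest footprints than in Mest RNA, by 29.1% against 3.48% of the mean. In rank Mest footprints went from places 268 and 192 to places 3357 and 3288.

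Igfbp3 footprints were at 871 and 981 FPKM in OPCs and at 89.8 and 81.3 FPKM in OLs. The mean was 926 ± 78.2 FPKM against 85.5 ± 5.99 (SD, n = 2), a 10.8-fold difference. The order of the 2 genes was therefore the opposite of that in RNA: Mest footprints were 0.676 and 0.804 times those of Igfbp3 in OPCs and 0.354 and 0.339 times in OLs. The footprint log2 change was -4.52 ± 0.19 for Mest and -3.43 ± 0.12 for Igfbp3, against a median of -0.16 over 8342 transcripts. Of these, 10.8% were lower and 12.8% higher in OLs past the threshold, shares that are given for scale only, since the choice of members used this contrast too.

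**Figure D3:**
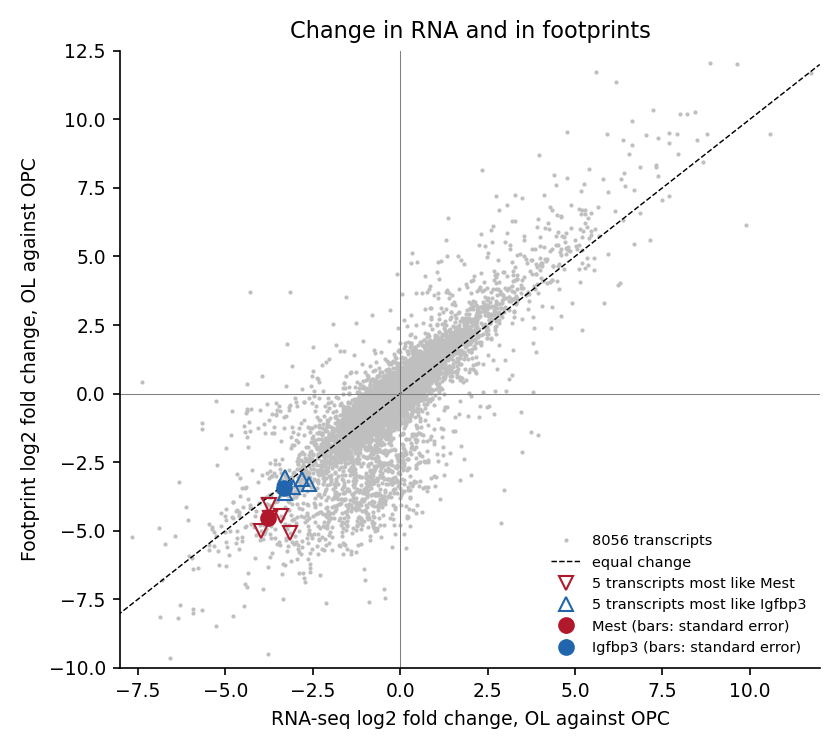
Log2 fold change of OLs against OPCs in RNA-seq (x axis) and in footprints (y axis) for 8056 transcripts tested in both (grey), with Mest and Igfbp3 as filled circles with standard errors. Open triangles are the 5 transcripts whose levels were most like each member. Igfbp3 lies next to the dashed line of equal change (-3.31 and -3.43), and Mest lies below it (-3.78 and -4.52).

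Ribosome density (RD), the footprint FPKM divided by the RNA FPKM, compares 2 libraries of the same culture. The members were not chosen on this ratio. The footprint and RNA values that enter it were part of that choice, so tests of RD are not independent of the choice. Igfbp3 had an RD of 3.37 and 3.00 in OPCs and of 3.20 and 2.67 in OLs. Mest had an RD of 1.33 and 1.85 in OPCs and of 1.07 and 0.820 in OLs. The median transcript had 1.72 and 1.77 in OPCs and 2.04 and 1.95 in OLs. Igfbp3 was above the median transcript in all 4 cultures, with 85.1% and 78.8% of transcripts below it in OPCs and 77.8% and 66.6% in OLs. Mest was on either side of the median in OPCs and below it in both OL cultures, where 17.0% and 17.6% of transcripts had a lower RD.

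RD was tested in each cell type with limma, with every library centred on the median log2 level of its tested transcripts. On this scale the median RD of all tested transcripts was 0.12 in OPCs and 0.06 in OLs, so 0 lies slightly below the median RD. In OPCs the centred log2 RD of Igfbp3 was 1.00 ± 0.19 (SE), which passed the test (Benjamini-Hochberg adjusted p = 0.00636 over 7813 transcripts). That of Mest was -0.02 ± 0.19 and did not pass (limma adjusted p = 0.946). In this test 27.8% of transcripts were higher and 16.2% lower past the threshold, so a call is common among transcripts of OPCs. The call of Igfbp3 was also made under each alternative fitted on all 4 libraries, with adjusted p from 0.000351 to 0.0249 (limma). The footprint and RNA values tested were part of the choice of members. The p-values of the members for RD, here and in OLs, are therefore descriptive and lend no support. Without centring, the log2 RD of Mest in OPCs was 0.65 (limma adjusted p = 0.0249). With centring kept, it was 0.01 with a pseudocount of 1 and 0.15 without a filter on low values, so the centred value gives no direction.

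In OLs the centred log2 RD was -0.90 ± 0.27 for Mest (limma adjusted p = 0.0730) and 0.74 ± 0.25 for Igfbp3 (limma adjusted p = 0.102), and neither passed over 7780 transcripts, of which 11% were higher and 3.98% lower past the threshold. With the replicate number as a block, which pairs the footprint and RNA library of the same culture, both passed, with limma adjusted p = 0.0371 for Mest and 0.0403 for Igfbp3, and the count of all transcripts past the threshold went from 1163 to 1939. Without centring, Mest was at -0.09 (limma adjusted p = 0.747) and Igfbp3 at 1.55 (limma adjusted p = 0.00198). Reads of Copg2 over the last Mest exon would enter the RNA value of Mest and not its footprint value, and their part in the RD of Mest was not tested.

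The log2 RD of Mest was lower in OLs than in OPCs by 0.31 in the cultures numbered 1 and by 1.17 in those numbered 2. The mean difference of the log2 changes, footprints minus RNA, was -0.74 for Mest and -0.12 for Igfbp3, against a median of 0.10 over 8056 transcripts, of which 13.7% were lower than Mest and 34.5% lower than Igfbp3. The 2 values of Mest differ by more than its mean change, and this contrast between cell types is given with no test.

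**Figure D4:**
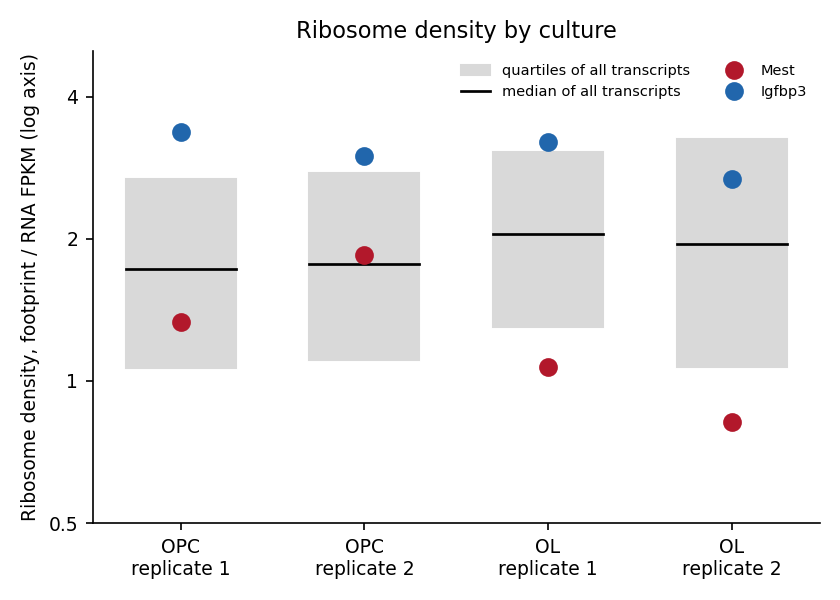
Ribosome density, footprint FPKM over RNA FPKM on a log axis, in each of the 4 cultures. Grey boxes span the quartiles of all transcripts with values in both libraries and black lines their median, with Igfbp3 (blue, 2.67 to 3.37) above the median in each culture and Mest (red, 0.820 to 1.85) below it in 3 of 4.

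The IGF axis was described from lists of ligands, receptors, binding proteins, their proteases, partners of IGFBP3, receptor adaptors and IGF2 mRNA binding proteins. Without Igfbp3 the lists hold 34 genes, of which 25 were listed and 18 reached a mean of 1 FPKM and were tested in RNA-seq. Among them 2 were higher and 5 lower in OLs (limma adjusted p under 0.05), shares to be read against the 13% and 20.2% of all transcripts, and the median log2 change was -0.58 against -0.23. In footprints 3 of 18 were higher and 2 lower, against 12.8% and 10.8% of all transcripts, with a median of -0.63 against -0.16. Without OPC replicate 2 Igfbp2 alone of these lists passed in RNA-seq, and without either OPC replicate no transcript of the whole table passed in footprints (limma, 1936 and 1927 at an unadjusted p under 0.05). Lrp1 and Htra1 missed the threshold in RNA-seq without OL replicate 2 (limma adjusted p = 0.0709 and 0.0570).

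Ligand transcripts were scarce: Igf1 did not exceed 0.127 FPKM and Igf2 0.313 FPKM in any RNA-seq library, and both were listed at 0 in all footprint libraries. The receptor Igf1r, which takes up the signal of both ligands, was at 16.9 and 12.7 FPKM in OPC RNA-seq and 12.6 and 12.2 in OLs (log2 change -0.24, limma adjusted p = 0.470). The insulin receptor gene Insr had a log2 change of -0.47 (limma adjusted p = 0.226). Igf2r, which carries IGF-2 to lysosomes and is imprinted, fell in RNA-seq from 11.4 and 10.7 to 3.13 and 2.44 FPKM (log2 change -1.96, limma adjusted p = 0.00683), while its footprint change of -1.49 did not pass (limma adjusted p = 0.139).

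Among the binding proteins, Igfbp2 was the most abundant, at 1044 and 883 FPKM in OPC RNA-seq against 54.5 and 94.6 in OLs, a log2 change of -3.74 ± 0.28 (limma adjusted p = 0.000955). Its footprints went from 1988 and 1831 to 97.9 and 133 FPKM (log2 change -4.06, limma adjusted p = 0.00317). Igfbp4 fell in RNA-seq from 24.0 and 20.4 to 1.08 and 0.862 FPKM (log2 change -4.38, limma adjusted p = 0.000918). Its footprints were at 129 and 91.7 FPKM in OPCs and at 6.64 and 0 FPKM in OLs, the 0 in the library with the most transcripts at 0. This footprint change of -7.05 did not pass (limma adjusted p = 0.0906) and passed with a pseudocount of 1 (-5.31, limma adjusted p = 0.0258). Igfbp5 stood apart, with 9.69 and 10.6 FPKM in OPCs against 11.4 and 8.57 in OLs (log2 change -0.03 ± 0.26, limma adjusted p = 0.932), and Igfbpl1 was too low to test. Of 3 tested binding protein genes beside Igfbp3, 2 fell in RNA-seq and 1 in footprints past the threshold, against 20.2% and 10.8% of all transcripts.

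Of the proteases that cleave IGF binding proteins, Htra1 fell in RNA-seq from 14.6 and 14.2 to 6.66 and 5.45 FPKM (log2 change -1.24, limma adjusted p = 0.0145), and Pappa and Pappa2 were at or below 0.164 FPKM. Stc2, which encodes an inhibitor of such a protease, changed by -1.79 on the log2 scale (limma adjusted p = 0.178). Of the partners of IGFBP3, the endocytic receptor gene Lrp1 rose from 11.9 and 7.91 to 25.5 and 27.3 FPKM (log2 change 1.43, limma adjusted p = 0.0112) and in footprints by 1.39 (limma adjusted p = 0.0325, and 0.0646 without a trend in the fit). Tmem219, the gene of the IGFBP3 receptor at the cell surface, was at 16.2 and 16.7 FPKM in OPCs and 15.1 and 7.61 in OLs (log2 change -0.61, limma adjusted p = 0.225). The nuclear receptor gene Rxra was at -1.23 on the log2 scale (limma adjusted p = 0.0515, and 0.0194 with the replicate block).

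The receptor adaptors showed no fall past the test. Grb10, an imprinted adaptor that restrains the insulin and IGF1 receptors, rose from 6.77 and 5.81 to 23.4 and 13.1 FPKM (log2 change 1.47, limma adjusted p = 0.0228) and in footprints by 1.76 (limma adjusted p = 0.0184). Both calls of Grb10 were lost without a trend in the fit (limma adjusted p = 0.0527 and 0.0539), and that in RNA-seq also without OL replicate 1 (0.0571). Irs1, the first docking protein of these receptors, rose in footprints from 11.5 and 11.4 to 40.0 and 40.0 FPKM (log2 change 1.79, limma adjusted p = 0.0109). Its RNA change of 0.83 missed the threshold (limma adjusted p = 0.0501) and passed with the replicate block (limma adjusted p = 0.0315). Irs2, Shc1 and Grb2 had log2 RNA changes of 0.12, -1.16 and 0.21, which did not pass, and Irs4 was below 1 FPKM. Igf2bp3, whose protein binds Igf2 mRNA, fell by 2.25 on the log2 scale in RNA-seq (limma adjusted p = 0.00363) and by 1.48 in footprints (limma adjusted p = 0.0157), and Igf2bp2 had a log2 RNA change of -0.54 (limma adjusted p = 0.142).

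**Figure D5:**
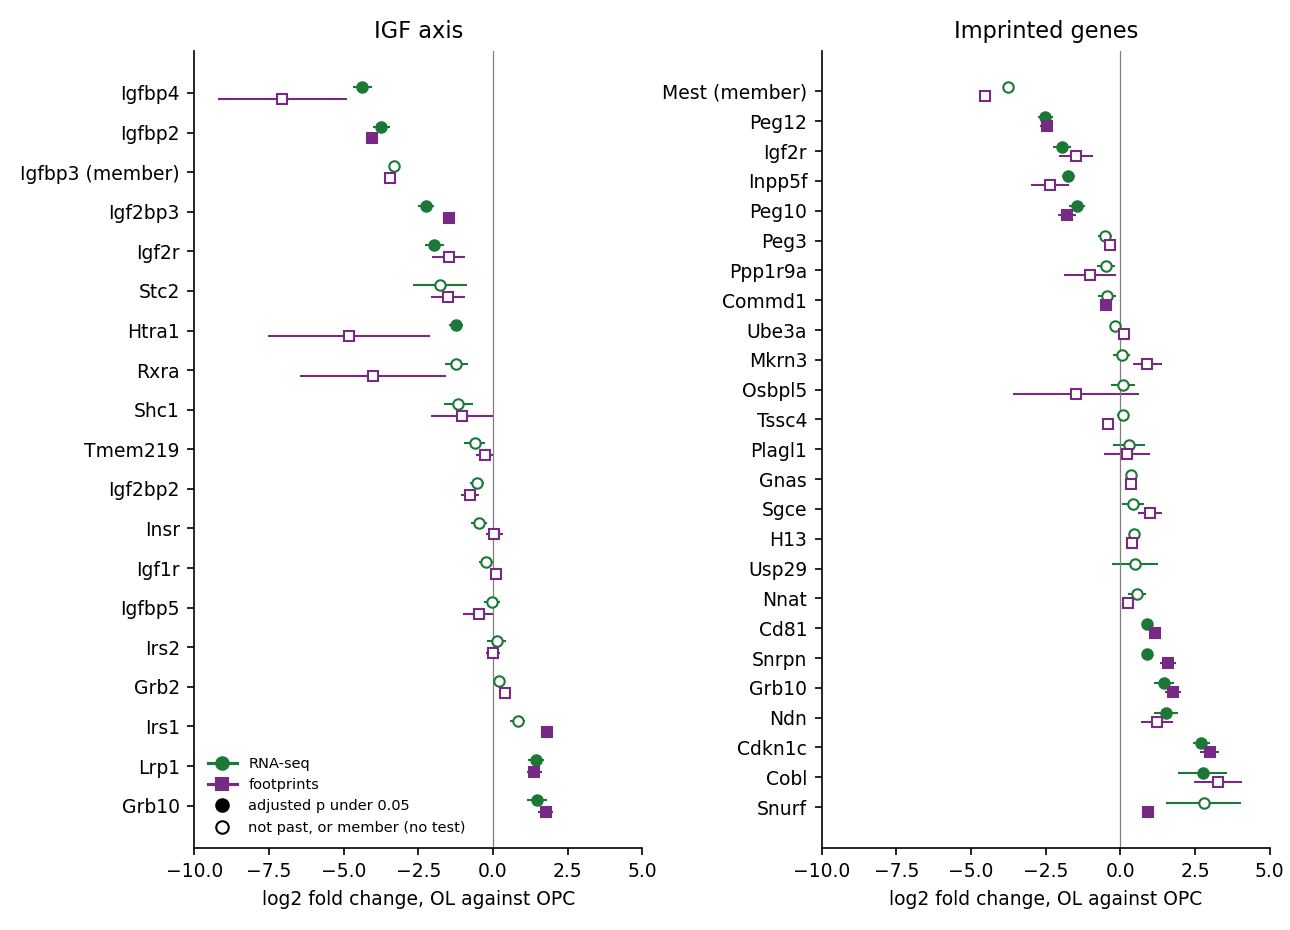
Log2 fold change of OLs against OPCs in RNA-seq (green circles) and footprints (purple squares) with standard errors, for the genes of the IGF axis (left) and for imprinted genes (right) that reach a mean of 1 FPKM in RNA-seq. Filled symbols passed an adjusted p of 0.05, and the members are open because they were not tested. Mest (-3.78 in RNA-seq) is the lowest of the imprinted genes shown, and Igfbp4 (-4.38) and Igfbp2 (-3.74) are lower in RNA-seq than Igfbp3 (-3.31). The widest footprint bars (Htra1, Rxra, Igfbp4 and Osbpl5) belong to genes with a footprint library at 0.

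Mest was set beside the other imprinted genes. Of 50 such genes in the lists, 33 were listed and 24 tested in RNA-seq, and 6 were higher and 4 lower in OLs (limma adjusted p under 0.05), against 13% and 20.2% of all transcripts, with a median log2 change of 0.32 against -0.23. In footprints 5 of 24 were higher and 3 lower, against 12.8% and 10.8%, with a median of 0.25 against -0.16, and without a trend in the fit 2 were higher and 1 lower. In RNA-seq 0 of 23 tested passed without OPC replicate 2, 2 of 24 without OPC replicate 1, and 5 of 22 without OL replicate 2.

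Among 12 tested genes beside Mest on the list of paternally expressed genes, 2 rose and 3 fell in RNA-seq, against 13% and 20.2% of all transcripts. Parent of origin was taken from the lists and was not measured in these cells, and it can depend on tissue or isoform. Peg12 fell from 35.1 and 44.1 to 5.69 and 8.16 FPKM (log2 change -2.51, limma adjusted p = 0.00230), Inpp5f, a phosphoinositide phosphatase gene, by 1.74 (limma adjusted p = 0.00397), and Peg10, a gene derived from a retrotransposon, by 1.46 (limma adjusted p = 0.0101). Ndn, which encodes necdin, rose by 1.52 (limma adjusted p = 0.0366) and Snrpn, a splicing protein gene, by 0.90 (limma adjusted p = 0.0132). The call of Ndn was lost without a filter on low values (limma adjusted p = 0.0588) and without a trend in the fit (limma adjusted p = 0.0791). Nnat, at 126 and 185 FPKM in OPCs and 175 and 289 in OLs, had a log2 change of 0.56 that did not pass (limma adjusted p = 0.200, and 0.0173 with the replicate block). Dlk1, another growth gene, was at 1.56 and 0.531 FPKM in OPC RNA-seq and listed at 0 in both OL libraries, below the minimum for a test. The genes of this list other than Mest had a median log2 change of 0.35, against -0.23 for all transcripts, and moved both ways.

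Among 9 tested genes on the list of maternally expressed genes, 3 rose and 1, Igf2r, fell in RNA-seq, against 13% and 20.2% of all transcripts. Cdkn1c, the gene of a cell cycle inhibitor, rose from 2.13 and 2.45 to 14.3 and 16.8 FPKM (log2 change 2.71, limma adjusted p = 0.00250) and in footprints by 2.99 (limma adjusted p = 0.0108). Cobl, an actin nucleator gene, rose by 2.75 in RNA-seq (limma adjusted p = 0.0474), from levels under 1 FPKM, and Cd81, a tetraspanin gene, by 0.90 (limma adjusted p = 0.00988). Of the genes whose expressed parent depends on tissue or isoform, Grb10 rose as given above, Gnas had a log2 RNA change of 0.36 (limma adjusted p = 0.129) and Commd1 of -0.44 (limma adjusted p = 0.282), and Commd1 fell in footprints by 0.47 (limma adjusted p = 0.0488), a call that was lost with the replicate block (0.0502), without a filter on low values (0.0539), after median-ratio scaling (0.127) and without a trend in the fit (0.172).

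The alpha/beta hydrolase fold list holds 24 genes beside Mest, of which 17 were tested, and 5 rose and 3 fell in RNA-seq, against 13% and 20.2% of all transcripts, with a median log2 change of -0.05 against -0.23. In footprints 5 rose and 2 fell, against 12.8% and 10.8%, with a median of 0.29 against -0.16, and without a trend in the fit 3 rose and 0 fell. In RNA-seq 3 rose and 1 fell without OPC replicate 1, 3 rose and 0 fell without OPC replicate 2, and 3 rose and 2 fell without OL replicate 2. Abhd12, a lysophospholipid lipase gene, rose from 21.6 and 27.0 to 126 and 103 FPKM (log2 change 2.23, limma adjusted p = 0.00139), and Abhd18 rose by 1.96 (limma adjusted p = 0.0112). Ephx4 was at 0 and 0.776 FPKM in OPCs and at 11.1 and 11.9 in OLs (limma adjusted p = 0.0142). Ephx1, the microsomal epoxide hydrolase gene, fell by 2.15 (limma adjusted p = 0.00530), Abhd15 by 1.38 (limma adjusted p = 0.0269) and Abhd17c, a depalmitoylase gene, by 1.25 (limma adjusted p = 0.00683). In OPC RNA-seq, where Mest stood at 442 and 427 FPKM, no other tested gene of this list exceeded 88.0 FPKM.

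The genes around each member on the chromosome were also listed. Of 5 tested neighbours of Mest, 2 fell in RNA-seq and 0 rose, against 20.2% and 13% of all transcripts, and 0 of 5 passed in footprints. These were Zc3hc1 and Tmem209, and 0 of 5 passed in RNA-seq without a trend in the fit, without OPC replicate 1, without OPC replicate 2 or without OL replicate 2. Zc3hc1, at a distance of 332.5 kb, changed by -1.10 (limma adjusted p = 0.0307, and 0.0651 after median-ratio scaling and 0.0675 without a trend). Tmem209, at 213.8 kb, changed by -1.60 (limma adjusted p = 0.0346, and 0.0570 without a filter on low values and 0.0791 without a trend). Cep41, the nearest tested gene at 29.8 kb, was at 2.41 and 2.65 FPKM in OPCs and 0.827 and 1.35 in OLs (log2 change -1.18, limma adjusted p = 0.141). Klhdc10 and Mkln1 had log2 changes of -0.31 and 0.11, which did not pass. Of 6 tested neighbours of Igfbp3, 2 rose and 3 fell in RNA-seq, against 13% and 20.2% of all transcripts. Without OPC replicate 1, 2 rose and 0 fell, without OPC replicate 2, 1 rose and 0 fell, and without OL replicate 2, 2 rose and 1 fell. Nacad, at 600.0 kb, rose by 4.0 (limma adjusted p = 0.00255), from low levels of 0.502 and 0.547 FPKM in OPCs to 11.4 and 8.58 in OLs. Tns3, at 1217.7 kb, rose by 2.92 (limma adjusted p = 0.00132). Tbrg4, Ccm2 and Purb, between 580.0 and 730.2 kb away, fell by 1.58, 1.03 and 1.01 (limma adjusted p between 0.0132 and 0.0139). Adcy1, the nearest tested gene at 27.6 kb, had a log2 change of -0.52 (limma adjusted p = 0.432). Igfbp1, at 3.5 kb, was not analysed here.

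Transcripts with a pattern most like each member were ranked by the root mean square difference of log2(FPKM + 0.1), centred within each kind of library, over the 8 libraries, among 8055 transcripts. A small value means that the transcript was higher and lower in the same libraries and by like amounts. Closest to Mest were Arhgap18 (0.260), Lgals1, the galectin-1 gene (0.284), Fanca, of the Fanconi anaemia DNA repair pathway (0.312), Igfbp2 (0.312) and Kntc1, a kinetochore gene (0.324). Lgals1 RNA was at 957 and 847 FPKM in OPCs and at 72.9 and 62.9 in OLs, and Fanca footprints were listed at 0 in both OL libraries. Closest to Igfbp3 were Hells, a chromatin remodeller gene of dividing cells (0.128), Nes, the nestin gene of neural progenitors (0.267), Itpripl1 (0.279), the nucleoside transporter gene Slc29a1 (0.281) and Dbf4, which activates a kinase of DNA replication (0.288). Hells RNA was at 28.2 and 27.5 FPKM in OPCs and at 2.78 and 2.74 in OLs. Igfbp3 was in place 14 by likeness to Mest and Mest in place 38 by likeness to Igfbp3, with a difference of 0.434 between them. All libraries enter this ranking, so it is a description with no test.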

How the data were processed

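The authors deposited FPKM for 10987 coding transcripts in 8 libraries. They kept reads of at least 18 nucleotides, mapped them to GRCm38 with HISAT2 2.1.0 and tabulated FPKM with StringTie 1.3.5 and ballgown on canonical Gencode coding transcripts, over the whole transcript for RNA-seq and over the CDS for footprints. FPKM keep no counts, so count models do not apply and depth was estimated. Positions and sequences came from Gencode vM21 and RefSeq (GRCm38).

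Levels were analysed as log2(FPKM + 0.1), which understates changes of low transcripts, with limma 3.58.1 in R 4.3.3 (eBayes with trend, two-sided, Benjamini-Hochberg over all transcripts that reach a mean of 1 FPKM, threshold 0.05), tested on simulated data. OLs were compared with OPCs over 4 libraries of a kind, and footprints with RNA over 4 libraries of a cell type. Libraries were grouped by their labels. Alternatives were another pseudocount (1), no minimum or 5 FPKM, no trend, a replicate block, median-ratio scaling, no centring, and leaving out replicates.

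The members and gene lists were chosen with earlier results of these data known. Named genes are the members, the 5 transcripts most like each, every gene of lists of up to 9 genes, and up to 3 largest changes per direction of longer lists. Not every one is reported.

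By the methods, OLs were derived from the OPC replicates and RNA was taken from the footprint lysate, so cultures with the same number are paired. The fits reported leave the pairing out, and the replicate block is an alternative. Deviations from group means of same-numbered libraries correlated at 0.12 to 0.264. With 2 cultures, p-values measure only the spread between these.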

Additional observations from a re-analysis of the deposited data

How the results depend on the processing

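The RNA and footprint changes of Mest and Igfbp3 kept their direction under all 6 alternatives run, from -3.87 to -3.60 and -3.48 to -3.13 in RNA and from -4.73 to -4.31 and -3.52 to -3.35 in footprints, the smallest RNA changes coming with median-ratio scaling. That scaling moved the median RNA change of all transcripts from -0.23 to -0.05 and the calls from 1083 higher and 1689 lower to 1343 higher and 1267 lower. Leaving out 1 replicate gave between 364 and 2599 calls in RNA, against 2772, with 532 without OPC replicate 1, 364 without OPC replicate 2 and 1633 without OL replicate 2. In footprints it gave between 0 and 3442, against 1969, with 0 without either OPC replicate (1936 and 1927 at an unadjusted p under 0.05, limma), 3442 without OL replicate 1 and 778 without OL replicate 2. The lone library of a cell type is then assumed to vary like the other group. Without trend 1036 footprint calls were made. For the IGF axis the calls in RNA ranged over these from 1 to 8, against 7, and for imprinted genes from 0 to 7, against 10, with 3 and 2 without OPC replicate 1, 1 and 0 without OPC replicate 2, and 5 imprinted genes without OL replicate 2.

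The replicate block moved the RNA calls to 3323 and the footprint calls to 1735. For RD in OLs, where 1163 passed, it gave 1939, no filter gave 298, no centring 3338 and no trend 0 (2270 at an unadjusted p under 0.05). The log2 RD of Mest in OPCs, -0.02 in the main fit, was 0.65 without centring and lay between -0.22 and 0.19 under the other alternatives. In OLs the log2 RD of Mest passed with a minimum of 5 FPKM (-1.12, limma adjusted p = 0.0133) and with the block (-0.90), and ranged from -1.18 to -0.77 when a replicate was left out, and from -1.12 to -0.69 when a single library was, an alternative added after seeing the data. That of Igfbp3 passed with the block (0.74) and without centring (1.55), and ranged from 0.52 to 0.81 and from 0.55 to 0.92 in the same way. The causes were not tested. With both libraries of a replicate left out, RD has no test. The second OL footprint library, with the most transcripts at 0, limits values of low transcripts.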
